A study of Mus musculus with 22 samples.

Results

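The genes described here encode laminin chains, the nidogens and perlecan: Lama2, Lama4, Lama5, Lamb1, Lamb2, Lamc1, Nid1, Nid2 and Hspg2. These 9 of the 21938 protein-coding genes were chosen by name. The locus of each was its gene span in the mouse build GRCm38 (GENCODE vM21) with 20 kb added on each side. Together the 9 loci span 1620 kb and hold 49 of the 104657 stretches, called regions here, in which the peaks of the 22 libraries merge.

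Laminins are cross-shaped secreted proteins, each built from an alpha, a beta and a gamma chain, and they assemble into the sheet that starts a basement membrane. Nidogens link this sheet to the type IV collagen network, and perlecan, the product of Hspg2, is a large heparan sulphate proteoglycan that binds laminin, nidogen and growth factors. Every adipocyte is wrapped in such a membrane, which it touches through integrins and dystroglycan.

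Open chromatin was measured by ATAC-seq, in which a transposase cuts accessible DNA, in nuclei of epididymal adipose tissue from 22 mice. All mice, on a background labelled C576BL6, carried AdipoERCre, a tamoxifen-inducible Cre driven in adipocytes, and the NuTRAP reporter, which puts a biotin tag on the nuclei of cells in which Cre has acted, and all received tamoxifen. The tagged nuclei were pulled down on streptavidin beads, so the material holds the adipocytes in which Cre acted and any nuclei carried along with them. Group C (n = 3, 18 weeks of age) ate chow, group H (n = 3, 18 weeks) a high-fat diet for 12 weeks, and group HC (n = 3, 26 weeks) the high-fat diet for 12 weeks and then chow for 8 weeks, with chow-fed CC_s (n = 3, 26 weeks) as its control. In the longer arm, group CC_l (n = 2, 31 weeks) ate chow, group HH (n = 3, 31 weeks) the high-fat diet for 25 weeks, and group HHC (n = 3, 39 weeks) the high-fat diet for 25 weeks and then chow for 8 weeks, with chow-fed CCC (n = 2, 39 weeks) as its control. In the last 8 weeks the weight loss groups and their controls were all fed another chow than the one used before. H and HH are called obese below and HC and HHC weight loss. The labels' sample codes start differently in each arm, and whatever that marks cannot be told apart from duration.

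Each library is a list of peaks with the summed coverage of each peak (total signal) and its highest coverage (maximum signal). The lists held 40528 to 60523 peaks over 128 to 299 Mb, and the sequencing depth of each library is unknown. HC 3 and HHC 3 stand apart from the rest: their median peak maximum was 2.43 and 2.25 times the lowest peak maximum in the list, against 3.67 to 8.92 in the other libraries. Differences after weight loss that rest on them are also given without them. All 12 adipocyte marker genes had a promoter peak in every library. Of 12 endothelial markers, 3 to 8 had one in 21 libraries and all 12 in HH 1. Locus signal is the total signal inside the locus per kb, on a log2 scale after the libraries were matched by rank, and values below its floor of 7.04 were set to the floor. Differences below are log2 differences ± SE from limma, with Benjamini-Hochberg adjusted p over all loci, regions or promoters tested. A lower signal in bulk nuclei can be fewer nuclei with an open site or less open chromatin per nucleus, and these cannot be told apart. Called means an adjusted p under 0.05, and for regions and promoters also a difference over 2-fold.

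In obese mice, 3 of the 9 loci were higher than in their controls over both durations: Hspg2 by 0.97 ± 0.15 (adjusted p = 7.8e-04), Lama2 by 0.96 ± 0.24 (adjusted p = 0.0186) and Lama5 by 0.81 ± 0.17 (adjusted p = 0.0073). Of all 19002 loci tested in this comparison, 9.26% were called, 4.88% as higher. None of the 9 was called lower, and the median difference of the 9 was 0.15, against -0.01 over all loci. After weight loss 1 of the 9 was called, Nid2, which was lower by 0.66 ± 0.13 (adjusted p = 0.0137), where 2.56% of all loci were called and 1.54% were called lower. Lama5 differed by 0.65 ± 0.17 after weight loss and did not pass the test (adjusted p = 0.0517), and with 1 library left out the difference ranged from 0.51 to 0.77 and the adjusted p from 0.0153 to 0.176, under 0.05 without CC_s 1, HC 2 or HHC 1. Without HC 3 and HHC 3 it was 0.39 (adjusted p = 0.0998). The mean promoter signal of the 12 endothelial markers was 15.00 to 15.19 in H, above the 14.85 to 14.95 in C, and 15.01 to 16.64 in HH, overlapping with the 14.85 to 15.04 in CC_l. Of these promoters, 3 to 5 were under a peak in each of these libraries except HH 1, and the part of this signal in the differences in obesity was not tested. No locus call in these comparisons remained when the maximum signal replaced the total signal.

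**Figure D1:**
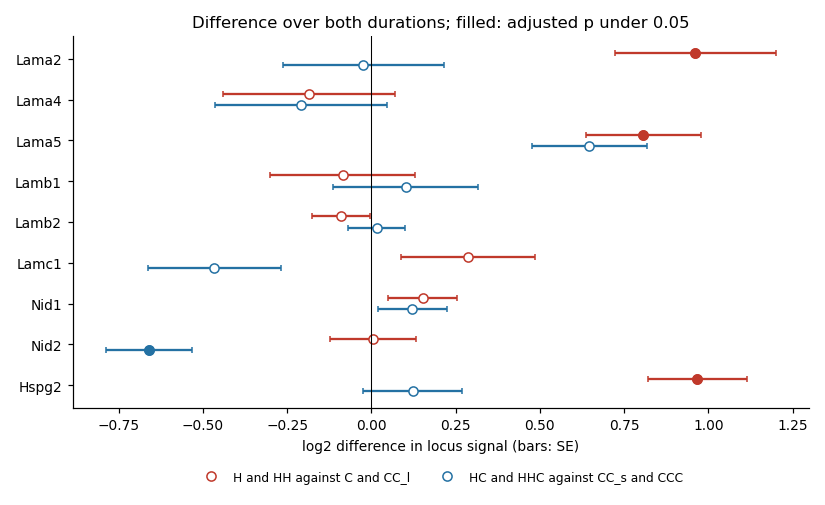
Difference in locus signal between obese mice and their controls (red) and between weight loss mice and their controls (blue), over both durations, for the 9 loci. The x axis is the log2 difference, bars are standard errors and filled points have an adjusted p under 0.05: Hspg2, Lama2 and Lama5 lie to the right in obesity and Nid2 to the left after weight loss.

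Taken arm by arm, loci were called only in H against C, and Lama2 and Nid2 were called in neither arm. Lama2 differed by 0.91 ± 0.33 in H against C (adjusted p = 0.0973) and by 1.01 ± 0.48 in HH against CC_l (adjusted p = 0.463). H against C called 2 of the 9 loci, both higher, Lama5 by 1.08 ± 0.15 (adjusted p = 0.0088) and Hspg2 by 0.85 ± 0.18 (adjusted p = 0.0228), where 15.1% of 17048 loci were called and 8.44% were called higher. With 1 library left out, the Lama5 call was lost without C 2 (adjusted p = 0.0501) or H 2 (adjusted p = 0.0504), and the Hspg2 call without C 1, C 2, H 1 or H 2 (adjusted p = 0.0568 to 0.0917). With the covered length Lama5 differed by 0.73 (adjusted p = 0.0659) and Hspg2 by 0.80 (adjusted p = 0.0766), and neither was called. The Hspg2 call was also lost with the 10000 strongest peaks (1.17, adjusted p = 0.0581) and the gene span without flanks (0.87, adjusted p = 0.0887). It was lost as well with the whole signal of every peak touching the locus (0.72, adjusted p = 0.0608). HH against CC_l, HC against CC_s and HHC against CCC called 0 loci in the whole genome, with 2115, 1620 and 704 loci at an unadjusted p under 0.05. At an unadjusted p under 0.01, HH against CC_l held Hspg2, higher by 1.09 ± 0.25 (adjusted p = 0.178), where 2.54% of all loci were higher by that rule. By the same rule HHC against CCC held Nid2, lower by 0.66 ± 0.17 (adjusted p = 0.849), where 0.343% of all loci were lower.

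The levels themselves were ordered Nid1, Lama4, Lamb2, Nid2, Lamc1, Hspg2, Lama5, Lamb1 and Lama2, with means over the 22 libraries from 13.27 for Nid1 to 11.60 for Lamb1 in log2 signal per kb and Lama2 far below. Neighbours in this order differed by 0.07 to 0.38 on average, less than the spread of the difference over libraries, except that Lamb1 was above Lama2 in 22 of 22 libraries, by 4.10 ± 0.66 (SD). Nid1 lay on average at the percentile 95.5 of coding loci and Lama2 at 24.0. Bases under a peak in all 22 libraries made up 13.6% of the Nid1 locus, 13.0% of Lamb2, 7.03% of Lama5 and 0 of Lama2.

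**Figure D2:**
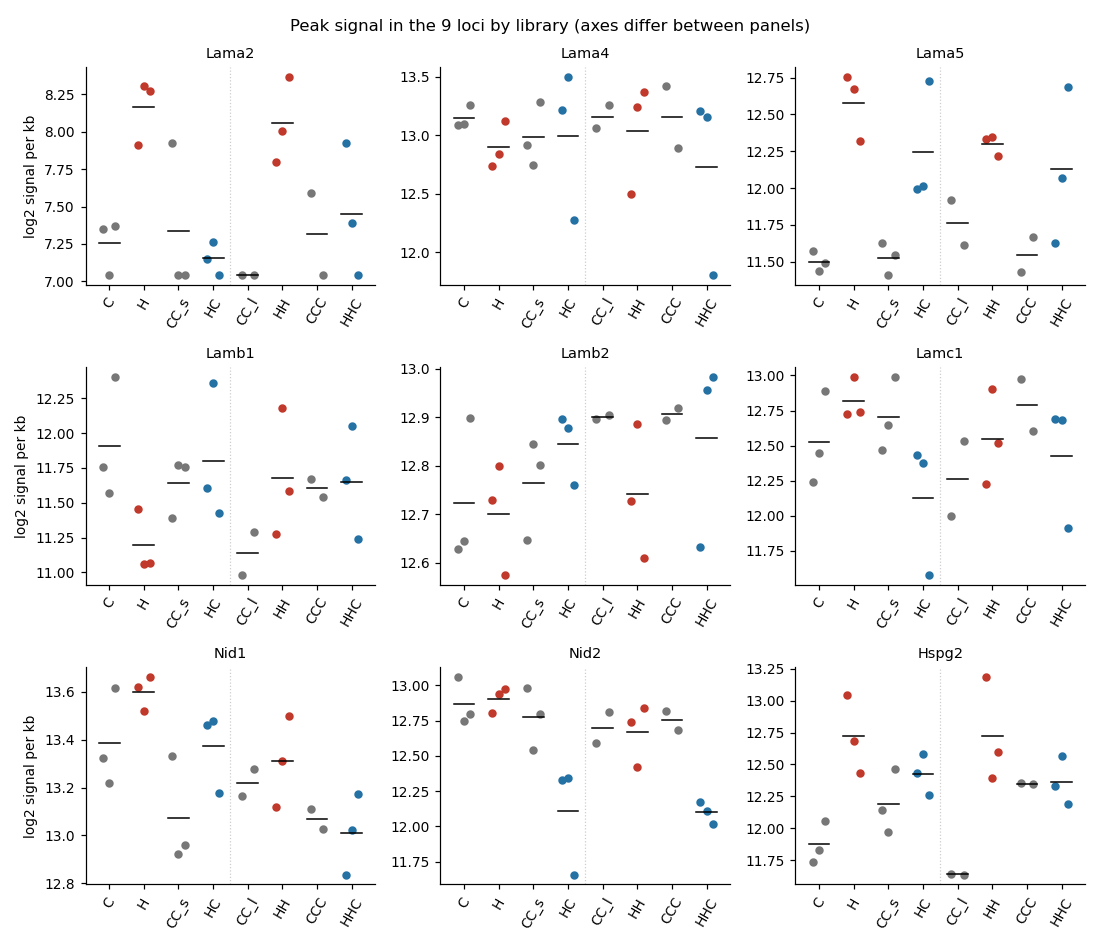
Locus signal (log2 total signal per kb) of the 9 loci in each of the 22 libraries, by group, with controls in grey, obese in red and weight loss in blue. Points are libraries, lines are group means and axes differ between panels: Lama5, Lama2 and Hspg2 are high in H and HH, and Nid2 is low in HC and HHC.

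Lama5, on the minus strand of chromosome 2 (180176373-180225859), encodes the laminin alpha 5 chain, found in vascular and epithelial basement membranes. Its locus signal was 11.57, 11.43 and 11.49 in C and 12.75, 12.67 and 12.32 in H. In the longer arm it was 11.92 and 11.61 in CC_l and 12.33, 12.34 and 12.22 in HH. All 6 obese libraries were above all 5 of their controls, and the call over both durations was lost without CC_l 2 (adjusted p = 0.0537) and with the covered length (0.53, adjusted p = 0.108). After weight loss the values were 11.99, 12.01 and 12.73 in HC against 11.63, 11.41 and 11.54 in CC_s, without overlap, and 11.63, 12.07 and 12.68 in HHC against 11.43 and 11.67 in CCC, with overlap. The highest library in each weight loss group was the one that stands apart, HC 3 and HHC 3, and the difference without both is given above. The locus also holds the start of Adrm1 and the end of Osbpl2.

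The region called was the 5′ part of Lama5. This stretch of 32853 bp, chr2:180199486-180232338, runs from 6.5 kb upstream of the start site to 26.4 kb into the gene. Its log2 total signal was 16.29, 16.52 and 16.81 in C, 18.40, 18.24 and 17.95 in H, 17.17 and 16.55 in CC_l and 17.80, 18.15 and 17.82 in HH. H was 3.15-fold above C (1.65 ± 0.18, adjusted p = 0.0042), without overlap. With the maximum signal in place of the total, this difference was 0.45 (adjusted p = 0.123) and that over both durations 0.43 (adjusted p = 0.111), and neither was called. This was 1 of 3 member regions called higher among 26 tested in H against C, where 8.28% of 30840 regions were called and 4.93% were called higher. HH was 2.09-fold above CC_l (1.06 ± 0.23, unadjusted p = 0.0034, adjusted p = 0.171), also without overlap. At an unadjusted p under 0.01 and over 2-fold, 2 of 27 member regions, those of Lama5 and Hspg2, were higher in this comparison, against 1.36% of all regions. Over both durations the fold was 2.57 (1.36 ± 0.25, adjusted p = 0.0025), 1 of 2 member regions called of 32 tested, where 3.13% of 49133 regions were called and 1.83% were called higher. With 50% of the region covered the log2 difference was 2.43 ± 0.63 and was not called (adjusted p = 0.0961). In the weight loss groups the same region was at 17.47, 17.33 and 18.21 in HC, above its 16.92, 16.64 and 16.84 in CC_s, and at 16.98, 17.46 and 18.62 in HHC, overlapping with its 16.84 and 17.32 in CCC. The difference over both durations was 0.74 ± 0.25 and was not called (adjusted p = 0.132), and without HC 3 and HHC 3, the highest of their groups, it was 0.37 (adjusted p = 0.290). At the other end of Lama5, the region chr2:180162775-180182596, which holds the Adrm1 promoter, was 0.63 ± 0.15 higher in H than in C (adjusted p = 0.0265), under 2-fold and without overlap.

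Promoter signal is the whole total signal of the peaks that touch a window of 2000 bp on each side of the start site, also where they reach past it. At the Lama5 promoter it was 15.58, 15.59 and 15.90 in C and 17.87, 16.79 and 17.12 in H. In the longer arm it was 15.92 and 15.36 in CC_l and 16.25, 16.84 and 16.51 in HH. Each obese group was above its control group without overlap. Over both durations it was higher by 1.23 ± 0.30 (adjusted p = 0.0429), the only promoter called of the 9 tested, where 1.29% of promoters were called and 0.781% were called higher. Leaving out each of the 22 libraries in turn, the call was lost in 14 fits, with the highest adjusted p of 0.214 without CC_l 2. With the signal inside the window only, a setting chosen after seeing the data, the difference was 1.06 (adjusted p = 0.216). It was also lost with the replicate block (1.08, adjusted p = 0.0930), the maximum signal (0.40, adjusted p = 0.355) and the 10000 strongest peaks (0.56, adjusted p = 0.235), and with a window of 1000 bp (1.16, adjusted p = 0.285). In H against C alone, where 1.98% of promoters were called, 0 of 8 tested members passed.

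Along the gene, the share of libraries under a peak showed where the groups parted. In the first kb of the gene a peak covered on average 12.8% of control, 65.1% of obese and 43.9% of weight loss libraries. At 16 kb into the gene it covered 0 of 10 control, 6 of 6 obese and 1 of 6 weight loss libraries. This intronic stretch was under peaks with maxima of 39, 37 and 41 in H and 24, 89 and 40 in HH, the 89 from a peak of 13872 bp whose summit lay outside the window shown, and with a maximum of 21 in HHC 3. It was found by looking at these values, so it has no test. With 1 position taken per kb, 369 of 607026 positions under a peak in any library (0.0608%) had a peak in all 6 obese and no control library, and 3 of the 909 such positions of the 9 loci did, 2 in Lama5 and 1 in Lama2. The opposite pattern, all 10 controls and no obese library, held at 414 positions of the genome (0.0682%) and 0 of the 9 loci.

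The promoter (250 bases before the start, chr2:180225860-180226109, minus strand) and the intron stretch (chr2:180209601-180209800, minus strand, 16.2 kb from the start) are printed 5′ to 3′. The promoter is printed for the promoter call above, which was lost with the signal inside the window only. A peak touched its 2000 bp window in 22 of 22 libraries, and the signal of the printed 250 bases was not measured. The intron stretch is printed because all obese and no control libraries had a peak there. Capitals mark the GC box, GGGCGG on either strand. Of the 9 genes 6 matched a RefSeq promoter sequence. The promoter is from RefSeq and the stretch from the RefSeq copy of GRCm38.p6.
Lama5 promoter: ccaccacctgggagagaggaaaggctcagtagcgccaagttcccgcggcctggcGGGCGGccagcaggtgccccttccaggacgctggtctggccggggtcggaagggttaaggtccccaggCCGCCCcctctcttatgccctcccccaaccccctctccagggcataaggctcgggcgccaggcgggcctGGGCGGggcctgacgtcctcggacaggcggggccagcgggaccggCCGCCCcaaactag
Lama5 intron element: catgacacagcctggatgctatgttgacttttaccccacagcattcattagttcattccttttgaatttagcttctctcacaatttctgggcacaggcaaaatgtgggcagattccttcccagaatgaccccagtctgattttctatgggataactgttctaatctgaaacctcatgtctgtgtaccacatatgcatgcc

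The promoter sequence was 72.4% G and C, against a median of 52.4% over 32851 promoter sequences, and held 4 GC boxes. At least 1 GC box stood in 32.7% of all promoters. The intron stretch was 43.0% G and C and held none of the 5 motifs searched on both strands, which were the AP-1 site TGANTCA, the GC box, the CCAAT box, the nuclear receptor motif AGGTCA and the C/EBP-type site TTGCNNAA. In windows of the same length at the centres of 104651 regions these stood in 7.34%, 8.63%, 29.5%, 13.4% and 14.3%.

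**Figure D3:**
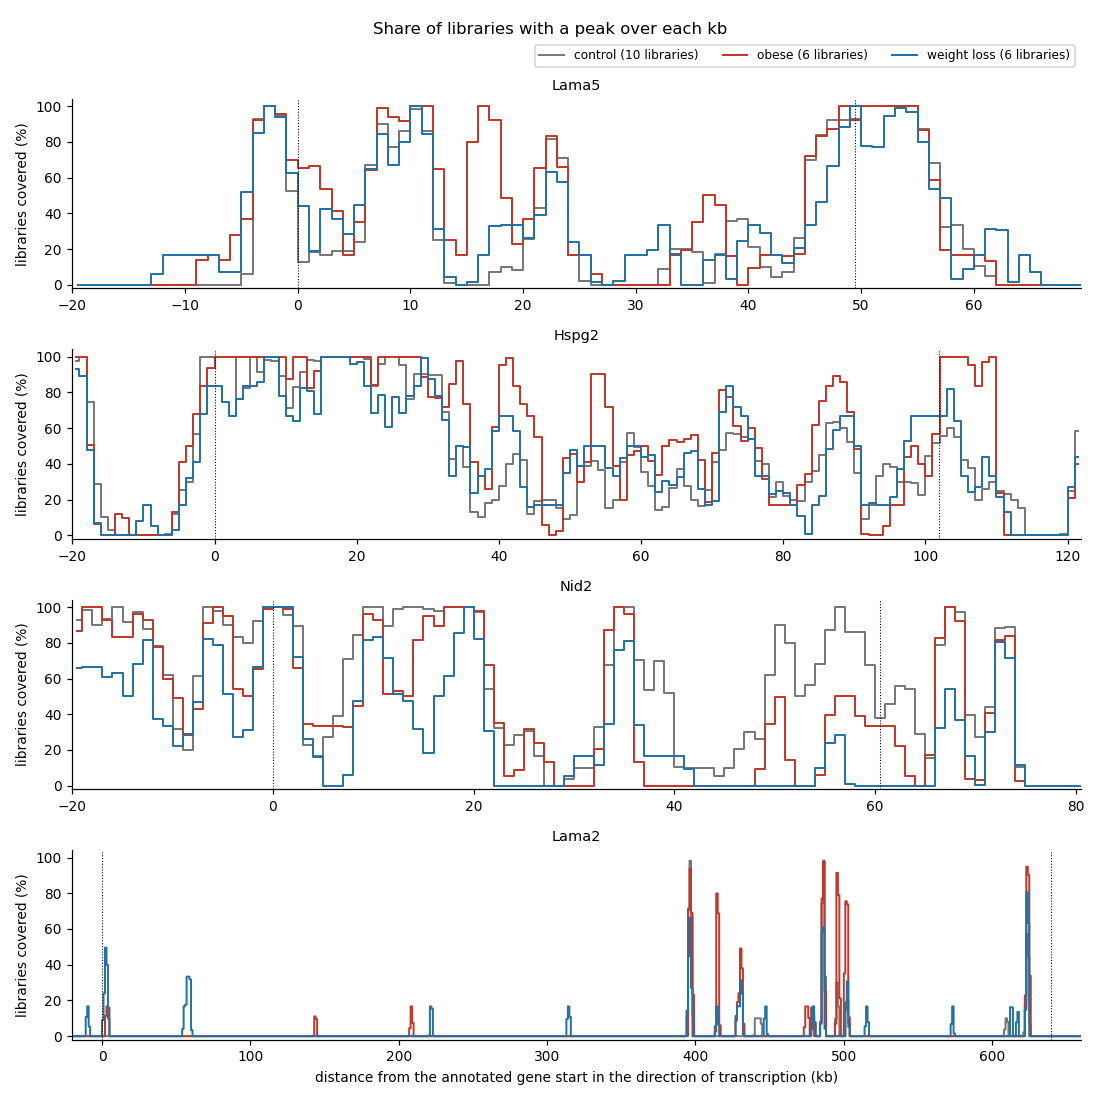
Share of control (10, grey), obese (6, red) and weight loss (6, blue) libraries with a peak over each kb of the Lama5, Hspg2, Nid2 and Lama2 loci, against the distance from the gene start in kb. Dotted lines are the gene start and end: in Lama5 the obese line reaches 100% at 16 kb, where the control line is at 0, and in Nid2 the weight loss line is at 0 where the control line is at 90% (50 kb).

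Lama2, on the minus strand of chromosome 10 (26980036-27619758), encodes the alpha 2 chain of muscle and peripheral nerve laminin. It was the least covered of the 9: 90.3% of its 680 kb locus was under no peak in any library, and 13 of its 23 regions had a peak in 1 library. Its promoter had a peak in 4 of 22 libraries, HC 3, HH 1, HHC 2 and HHC 3, and in no control library. Of these, HC 3 and HHC 3 are the libraries that stand apart and HH 1 is the one with all 12 endothelial promoters under a peak. The locus signal was 7.35, 7.04 and 7.37 in C, 7.91, 8.30 and 8.27 in H, 7.04 and 7.04 in CC_l and 7.80, 8.01 and 8.36 in HH. All 6 obese libraries were above all 5 of their controls, of which 3 were at the floor. The call was lost without C 2 (adjusted p = 0.0525) or CC_l 1 (adjusted p = 0.0539), on the gene span without flanks (1.41, adjusted p = 0.0629) and with the covered length (1.03, adjusted p = 0.0824). The weight loss values, 7.15, 7.26 and 7.04 in HC and 7.92, 7.39 and 7.04 in HHC, overlapped with those of CC_s (7.92, 7.04 and 7.04) and CCC (7.59 and 7.04), with a difference of -0.02 ± 0.24 (adjusted p = 0.963).

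A stretch 415 kb into Lama2 (chr10:27204804-27205003), with 178 bases of a coding exon, lay under a peak in 6 of 6 obese, 0 of 10 control and 1 of 6 weight loss libraries. The peak maxima were 69, 48 and 70 in H, 22, 63 and 77 in HH and 35 in HC 2. It is printed on the minus strand, with the coding bases in capitals, as a stretch where all obese and no control libraries had a peak, and it held none of the 5 motifs. It was chosen after its values were seen and has no test.
Lama2 exon element: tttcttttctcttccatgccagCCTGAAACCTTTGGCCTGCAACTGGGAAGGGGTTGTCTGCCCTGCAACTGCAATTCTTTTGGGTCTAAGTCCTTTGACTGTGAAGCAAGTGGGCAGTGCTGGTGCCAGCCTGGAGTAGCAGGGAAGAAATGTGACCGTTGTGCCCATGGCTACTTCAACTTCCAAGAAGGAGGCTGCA

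**Figure D4:**
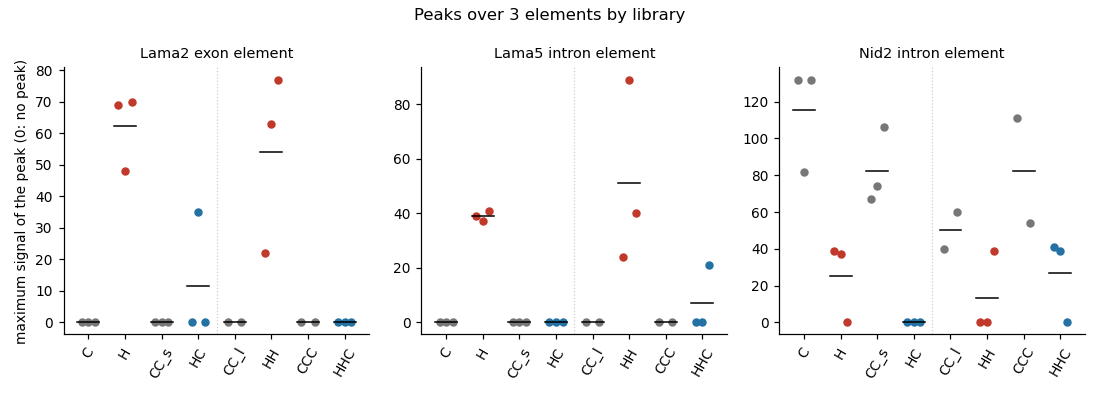
Maximum signal, in units of coverage, of the peak over a stretch of Lama2, Lama5 and Nid2 in each library by group, where 0 means no peak, points are libraries and lines are group means. The Lama2 and Lama5 stretches have a peak in all 6 obese and no control library, and the Nid2 stretch has one in all 10 controls and in no HC library.

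Lama4, on chromosome 10 (38965515-39110188, plus strand), encodes the alpha 4 chain, a main laminin alpha chain around adipocytes and vessels. It lies in 1 wide region of 163121 bp, chr10:38960193-39123313, with a peak in 22 of 22 libraries, which also holds the Fam229b promoter. The widest single peak there ran from 3110 bp in HHC 3 to 161475 bp in CCC 1, and peaks covered 14.1% of the locus in HHC 3 and 90.2% in CCC 1. The group means of locus signal were 13.15 in C, 12.90 in H, 13.16 in CC_l and 13.04 in HH, and the difference over both durations was -0.18 ± 0.25 (adjusted p = 0.752). After weight loss it was -0.21 ± 0.25 (adjusted p = 0.626), with the lowest values in HC 3 (12.28) and HHC 3 (11.81). Without these 2 libraries the sign turned, to 0.20 ± 0.17 (adjusted p = 0.591).

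The beta and gamma chains showed no call. Lamb1, the beta 1 chain (chromosome 12, 31265234-31329644), was at 11.76, 11.57 and 12.40 in C and 11.46, 11.06 and 11.07 in H. In the longer arm it was at 10.98 and 11.29 in CC_l and 11.28, 12.18 and 11.59 in HH. H was below C without overlap, by 0.71 ± 0.24 (adjusted p = 0.0799), and HH was 0.54 ± 0.30 above CC_l with overlap (adjusted p = 0.524). Lamb2, the beta 2 chain of neuromuscular and glomerular laminins (chromosome 9, 108479736-108490530), varied least, with an SD of 0.13 over the 22 libraries, and its locus also holds start sites of Klhdc8b, Ccdc71, Usp19 and Qars. Lamc1, the gamma 1 chain shared by most laminins (chromosome 1, 153218922-153332786, minus strand), differed by 0.29 ± 0.20 in obesity (adjusted p = 0.430) and by -0.47 ± 0.20 after weight loss (adjusted p = 0.190), or -0.20 ± 0.17 without HC 3 and HHC 3 (adjusted p = 0.591). Its HC values of 12.44, 12.37 and 11.58 lay below the 12.47, 12.65 and 12.99 of CC_s without overlap, and the lowest was HC 3.

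Nid1, on chromosome 13 (13437551-13512269, plus strand), encodes nidogen 1 and had the highest locus signal of the 9. The locus as a whole differed by 0.21 ± 0.11 between H and C (adjusted p = 0.222) and by 0.15 ± 0.10 over both durations (adjusted p = 0.411). A pair of narrow regions upstream of the gene differed in the shorter arm. The farther one, chr13:13413851-13420603, was at 14.43, 14.21 and 14.32 in C and 15.67, 15.90 and 15.55 in H, 2.62-fold higher without overlap (1.39 ± 0.22, adjusted p = 0.0099). The nearer one, chr13:13421188-13426104, was at 14.08, 14.52 and 14.28 in C and 15.28, 15.31 and 15.53 in H, 2.11-fold higher without overlap (1.08 ± 0.22, adjusted p = 0.0192). In the longer arm HH overlapped with CC_l in both, with differences of 0.52 ± 0.40 (adjusted p = 0.587) and -0.00 ± 0.35 (adjusted p = 0.998). After weight loss the differences were 0.08 ± 0.26 and -0.04 ± 0.20 over both durations. Without HC 3 and HHC 3 they were 0.29 ± 0.27 (adjusted p = 0.688) and 0.10 ± 0.20 (adjusted p = 0.919). With 1 library left out, the call of the nearer region was lost without C 1, C 2, C 3, H 1 or H 2 (adjusted p = 0.0580 to 0.0798) and that of the farther one without C 2 (adjusted p = 0.0702). With the maximum signal the farther region differed by 0.16 (adjusted p = 0.684) and was not called, and the nearer one by 1.06 (adjusted p = 0.0148). The call of the nearer region was lost with the share of total signal (0.96, under 2-fold) and with no filter on low features (adjusted p = 0.0535), and that of the farther one with 50% of the region covered (0.42, under 2-fold).

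These 2 upstream stretches are printed around their peak summits (chr13:13415475-13415674 and chr13:13423979-13424178, plus strand, 22 and 13.5 kb before the start) because the called Nid1 regions hold them. The first lay under a peak in 9 of 10 control and 5 of 6 obese libraries, the second in 10 of 10 and 6 of 6. At the first the peak maxima were 56, 60 and 120 in C and 54, 54 and 56 in H. The peaks there were 2915, 1556 and 1506 bp wide in C and 4829, 6187 and 5204 bp in H. At the second the maxima were 37, 47 and 63 in C and 57, 70 and 83 in H. Capitals mark CCAAT boxes (CCAAT or ATTGG) and the GC box. The first held 3 CCAAT boxes and 1 GC box and the second 1 CCAAT box.
Nid1 upstream element 1: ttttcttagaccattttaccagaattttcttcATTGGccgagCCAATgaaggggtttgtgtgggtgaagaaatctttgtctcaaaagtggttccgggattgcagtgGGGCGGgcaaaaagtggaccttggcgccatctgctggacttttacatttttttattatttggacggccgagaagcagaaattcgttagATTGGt
Nid1 upstream element 2: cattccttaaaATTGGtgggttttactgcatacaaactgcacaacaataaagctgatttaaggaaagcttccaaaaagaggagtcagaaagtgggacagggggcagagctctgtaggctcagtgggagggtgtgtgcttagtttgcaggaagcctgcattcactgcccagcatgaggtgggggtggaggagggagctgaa

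Nid2, on chromosome 14 (19751265-19811787, plus strand), encodes nidogen 2, and its end shares 437 bases with the end of Rtraf, a gene on the other strand. Its locus signal was 12.33, 12.34 and 11.66 in HC against 12.98, 12.54 and 12.80 in CC_s. In the longer arm it was 12.17, 12.11 and 12.02 in HHC against 12.82 and 12.69 in CCC. All 6 weight loss libraries were below all 5 of their controls. Neither arm passed the test alone, with differences of -0.67 ± 0.23 (adjusted p = 0.442) and -0.66 ± 0.17 (adjusted p = 0.849). Without HC 3 and HHC 3 the difference over both durations was -0.53 (adjusted p = 0.019), and the call was lost without CCC 1 (adjusted p = 0.0675) or CCC 2 (adjusted p = 0.0589), on the gene span without flanks (-0.68, adjusted p = 0.0892), and with the 10000 strongest peaks (-0.90, adjusted p = 0.101). The obese and control libraries overlapped, with a difference of 0.00 ± 0.13 (adjusted p = 1.00).

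The region called was the 3′ part of Nid2. It is chr14:19796079-19826119, 30041 bp long, and covers the last part of Nid2 and the Rtraf promoter. Its log2 total signal was 16.20, 15.93 and 16.07 in HC against 17.56, 17.23 and 17.40 in CC_s, and 16.11, 16.04 and 15.15 in HHC against 17.16 and 17.35 in CCC. The weight loss libraries were all lower than their controls, at 0.377 of the control level over both durations (-1.41 ± 0.17, adjusted p = 8.2e-04). It was the only member region called of 32 tested, where 0.983% of regions were called and 0.786% were called lower. The single arms did not pass the test, with -1.33 ± 0.21 in HC against CC_s (unadjusted p = 1.7e-04, adjusted p = 0.130) and -1.49 ± 0.39 in HHC against CCC (unadjusted p = 0.0070, adjusted p = 0.753). At an unadjusted p under 0.01 and over 2-fold, it was 1 of 24 member regions lower in each of these comparisons, against 2.10% and 0.583% of all regions. Without HC 3 and HHC 3 the difference was -1.26 (adjusted p = 3.7e-04). In obesity the region was at 17.21, 17.46 and 16.83 in H, around its 17.37, 17.28 and 17.27 in C, and at 16.36, 16.56 and 16.93 in HH, below its 17.27 and 17.32 in CC_l (-0.68 ± 0.22, adjusted p = 0.261). The call was not made with the maximum signal (-0.10), with the 10000 strongest peaks (-0.063, adjusted p = 0.515) or with 50% of the region covered (-0.99, adjusted p = 0.633). The region that holds the 5′ part of Nid2, chr14:19716360-19779048, differed by -0.51 ± 0.13 after weight loss (adjusted p = 0.0548), with all weight loss libraries below their controls. The mean promoter signal of the 10 mesothelial markers was 14.73 to 15.08 in HC and 14.43 to 14.87 in CC_s, and 14.61 to 14.97 in HHC and 14.33 to 14.42 in CCC, with 2 to 7 promoters under a peak in the weight loss libraries and 1 to 4 in these controls. That of the 12 endothelial markers was 14.94 to 15.55 in HC and 14.85 to 14.88 in CC_s, and 14.86 to 15.79 in HHC and 14.83 to 15.30 in CCC. Their part in the Nid2 differences was not tested.

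Between 50 and 51 kb into Nid2 a peak covered on average 90% of control, 49.4% of obese and 0 of weight loss libraries, and at 67 kb, on the side of Rtraf, 100% of control, 100% of obese and 53.9% of weight loss libraries. An intronic stretch at 56.3 kb (chr14:19807441-19807640, plus strand) had a peak in 10 of 10 control, 3 of 6 obese and 2 of 6 weight loss libraries. The peak maxima there were 132, 82 and 132 in C, 67, 74 and 106 in CC_s, 40 and 60 in CC_l and 111 and 54 in CCC. The obese libraries with a peak there were H 1 (39), H 2 (37) and HH 3 (39), and the weight loss libraries HHC 1 (41) and HHC 2 (39). No HC library had one. The stretch, like the places above, was chosen after these values were seen and has no test. It is printed because the controls shared it, with capitals for a CCAAT box (as ATTGG) and a C/EBP-type site (as TTGGGCAA) that overlap.
Nid2 intron element: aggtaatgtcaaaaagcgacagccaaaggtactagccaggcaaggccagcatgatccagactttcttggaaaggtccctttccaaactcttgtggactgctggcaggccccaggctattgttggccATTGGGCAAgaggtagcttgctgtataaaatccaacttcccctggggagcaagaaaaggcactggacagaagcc

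Hspg2, on chromosome 4 (137468769-137570630, plus strand), encodes perlecan. Its locus signal was 11.73, 11.83 and 12.06 in C and 13.05, 12.68 and 12.43 in H. In the longer arm it was 11.64 and 11.64 in CC_l and 13.18, 12.39 and 12.60 in HH. All 6 obese libraries were above all 5 of their controls. The highest, HH 1, was also the library with all 12 endothelial promoters under a peak, and without it the difference over both durations was 0.85 (adjusted p = 0.0011). In the weight loss groups the values were 12.43, 12.58 and 12.26 in HC against 12.14, 11.97 and 12.46 in CC_s, and 12.33, 12.57 and 12.19 in HHC against 12.35 and 12.35 in CCC. These overlapped, with a difference of 0.12 ± 0.15 (adjusted p = 0.620). Between control groups, CCC, older and fed the later chow, was 0.71 ± 0.15 above CC_l without overlap (unadjusted p = 0.0028) but did not pass the test (adjusted p = 0.454), and CC_s differed from C by 0.32 with overlap (adjusted p = 0.719).

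Hspg2 lies in 1 region of 119830 bp, chr4:137462717-137582546, which also holds the Ldlrad2 promoter. Its log2 total signal was 18.59, 18.73 and 19.06 in C and 20.14, 19.73 and 19.48 in H. In the longer arm it was 18.62 and 18.58 in CC_l and 20.29, 19.50 and 19.55 in HH. The obese groups lay above their controls without overlap, 2.12-fold over both durations (1.08 ± 0.15, adjusted p = 4.8e-04). The call was lost with the maximum signal (0.48, adjusted p = 0.0585), with 50% of the region covered (4.02 ± 1.08, adjusted p = 0.112) and, being under 2-fold, with the share of total signal (0.89). Without H 1 the difference was 0.99 and without HH 1 it was 0.96, both under 2-fold. After weight loss it was 0.13 ± 0.15 (adjusted p = 0.703). The share of libraries under a peak parted at several places along the gene, of which 3 are given. They were chosen after these values were seen and have no test. Between 41 and 42 kb a peak covered on average 40% of control, 99.5% of obese and 66.7% of weight loss libraries. At 53 kb the shares were 41.4%, 90.4% and 50%, and at 109 kb, past the end of the gene, 30%, 100% and 33.3%. The promoter had a peak in 21 of 22 libraries, all but HHC 3, and differed by 1.62 ± 0.65 in obesity (adjusted p = 0.243).

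The Hspg2 promoter (chr4:137468553-137468802, plus strand, RefSeq) is printed as the start of the locus with the lowest adjusted p in obesity over both durations among the 9. The promoter itself was not called. It was 70.0% G and C and held 5 GC boxes, in capitals. Of the other members whose promoter sequence was found, Lama2 was 47.2% G and C with 0 GC boxes, Lama5 72.4% with 4, Lamb1 62% with 2, Lamb2 43.6% with 0 and Nid1 64.4% with 1.
Hspg2 promoter: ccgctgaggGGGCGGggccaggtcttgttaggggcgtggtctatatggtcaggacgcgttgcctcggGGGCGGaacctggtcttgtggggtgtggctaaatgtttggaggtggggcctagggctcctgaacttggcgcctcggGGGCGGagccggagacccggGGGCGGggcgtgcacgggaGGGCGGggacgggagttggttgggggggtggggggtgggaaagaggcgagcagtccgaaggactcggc

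**Figure D5:**
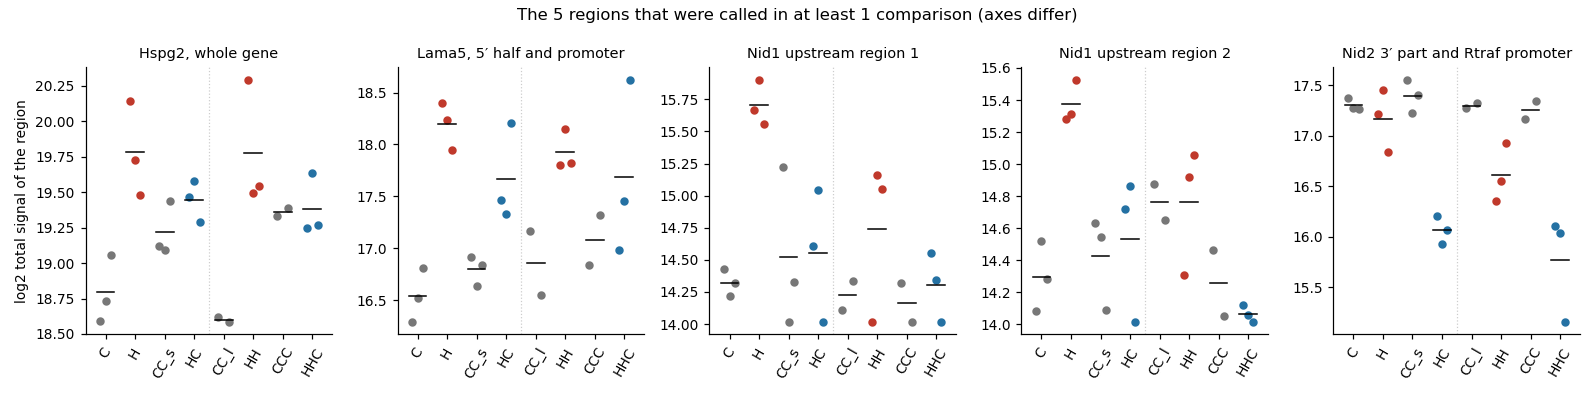
Log2 total signal of the 5 regions called in at least 1 comparison, in each library by group, with axes that differ between panels, points for libraries and lines for group means. The Hspg2 and Lama5 regions are high in H and HH, the 2 Nid1 regions in H, and the Nid2 region is low in HC and HHC.

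Across the 22 libraries, the member pairs with the largest correlations of locus signal were Lama4 with Lamc1 (r = 0.60), Lama5 with Hspg2 (r = 0.57) and Lama4 with Lama5 (r = -0.55). The points share arm, library and peak calling. HC 3 and HHC 3 had the lowest values of Lama4 (12.28 and 11.81) and of Lamc1 (11.58 and 11.91). In Lama5 they were at 12.73 and 12.68, where only H 1 (12.75) was higher. No correlation given here was computed without them. Among coding loci at least 1 Mb away, those most like Lama5 were Olfr480, Olfr479 and Pnpla6 (r = 0.889 each), those most like Hspg2 were Atp2a3 (r = 0.869), Stambpl1 (r = 0.839) and Nmrk1 (r = 0.838), those most like Nid2 were Il17f (r = 0.911), Asap2 (r = 0.898) and Slc27a6 (r = 0.875), and those most like Lama2 were Rab30 (r = 0.908), Zfp260 (r = 0.903) and Zfp235 (r = 0.883).

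Of 24 other basement membrane genes, 22 were tested in obesity over both durations, and 3 rose and 2 fell (9.26% of all loci called), with a median difference of -0.19. Those higher were Ntn4, which encodes a netrin that binds laminin gamma chains (1.67 ± 0.43, adjusted p = 0.0232), and Col4a1 (0.56 ± 0.14, adjusted p = 0.0197) and Col4a2 (0.53 ± 0.11, adjusted p = 0.0050), neighbours that encode the chains of the common type IV collagen. Those lower were Lama1 (-1.32 ± 0.36, adjusted p = 0.0303) and Lamb3 (-0.59 ± 0.07, adjusted p = 1.8e-04), chains of embryonic and epithelial laminins. In H against C, where 15.1% of all loci were called, 4 of 21 tested were called higher and 4 lower, among them these 5, Sparc (0.52), a collagen-binding protein of the matrix, as higher, and Smoc1 (-0.76) as lower. After weight loss 0 of 22 were called. Of 10 mesothelial markers, 0 to 1 had a promoter peak in H and 0 to 2 in HH against 2 to 5 in C and 3 in CC_l. Their mean promoter signal was 14.30 to 14.31 in H, 14.30 in HH, 14.35 to 14.66 in C and 14.39 to 14.69 in CC_l, with Upk1b, Gpm6a and Bnc1 without a peak in every library. Macrophage markers, with 3 to 7 of 12 promoters under a peak in these groups, were at 14.75 to 14.95 in H and 15.04 to 15.38 in C, without overlap, and at 14.85 to 14.94 in HH and 14.87 to 14.97 in CC_l, with overlap. The part of such nuclei in these results was not tested.

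Of 19 genes for receptors of the basement membrane and their inner partners, 18 were tested in obesity, and 4 rose and 1 fell (9.26% of all loci called), with a median difference of 0.23. The integrin chains Itgb1 (0.72 ± 0.20, adjusted p = 0.0290) and Itga1 (0.67 ± 0.21, adjusted p = 0.0494), the adaptor Lims1 (0.86 ± 0.15, adjusted p = 0.0026) and talin, Tln1 (0.39 ± 0.10, adjusted p = 0.0219), were higher. Dag1, which encodes dystroglycan, a laminin receptor outside the integrins, was lower (-0.63 ± 0.16, adjusted p = 0.0209). After weight loss 0 of 18 were called. The part of the endothelial marker signal given above in these differences was not tested.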

How the data were processed

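Per the submitters' processing notes and methods, the authors trimmed reads with Trim Galore (0.6.6), aligned them to mm10 with Bowtie2 (2.4.4) and called peaks per library with SEACR (1.3, stringent mode, threshold 0.01), without pooling replicates. Each deposited list gives total and maximum signal per peak, in coverage units. No normalization is stated. The study gives only a minimum number of reads, so the depth of each library is unknown. One mitochondrial peak per library was set aside.

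Peaks were merged into regions. The signal of each region, promoter (2000 bp on each side of start sites) and locus was put on a log2 scale and rank-mapped to the mean sorted values of the 22 libraries: the 30083 highest regions, 12439 promoters and 16763 loci of each library kept their rank, and the rest took the floor (14.01, 14.30 and 7.04). The rank mapping makes libraries comparable in distribution, so a change shared by most loci would not be seen. limma (3.58.1, R 4.3.3) was fitted with lmFit and eBayes with a trend to the libraries of both groups, or of all 8 groups for effects over both durations. A feature was tested when the number of libraries above the floor reached the size of the smaller group. The code was tested on simulated data.

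Named genes were the 9 members, the called genes of 2 lists, and the 3 loci most correlated with a member. The result of 1 list gene is not reported here. The members and lists were chosen with earlier results of these data known. Libraries were single animals, grouped by the labels. Replicate numbers paired CC_s with C (correlations of deviations 0.31 to 0.42) and no other groups. Alternatives were other peak sets, overlap rules, signal measures, scalings, filters, model settings, a replicate block and each library left out. Sequences are from RefSeq GRCm38.p6.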

Additional observations from a re-analysis of the deposited data

Results flagged for a closer look

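Lamb1, the laminin beta 1 chain gene, had differences of opposite sign in the arms, neither of which passed the adjusted test alone. At the locus H was 0.71 below C and HH was 0.54 above CC_l. The test of the difference of these effects, a contrast within the fit of all 8 groups in limma, gave 1.26 ± 0.43 (25 weeks minus 12 weeks, unadjusted p = 0.0093), which fails the adjustment over all loci (adjusted p = 1.00). In the region that holds the gene, chr12:31259401-31338637, the difference was 1.18 ± 0.40 (unadjusted p = 0.0094, adjusted p = 0.954). With the maximum signal the difference was 0.13 ± 0.40 at the locus and 0.66 ± 0.33 in the region (adjusted p = 1.00 for both). The values were singled out for an unadjusted p under 0.01 with an absolute difference over 1. Duration cannot be told apart from anything else that differed between the arms.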

How the results depend on the processing

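Beside the values above, counts of member calls moved as follows, with the cause not tested. With 50% of a region covered, H against C called 1 region, CCC against CC_l 1, obesity over both durations 0 and weight loss 0. With the 10000 strongest peaks, weight loss called 0 regions and 0 loci, obesity 0 promoters and H against C 1 locus. With the maximum signal, weight loss called 0 regions and 0 loci, obesity 0 promoters and 0 loci, and H against C 0 loci. It called 3 regions in H against C and 2 in obesity, as with the total signal, but those of Lama2 and the nearer Nid1 region, not those of Lama5 and Hspg2. These 2 Lama2 regions had no peak in any C library. They were therefore tested in H against C only through the H libraries, and their calls there are not taken as support. No share over all regions is given for the maximum signal. The promoter call of obesity became 0 with the share of total signal, a 1000 bp window, no filter, the replicate block and the signal inside the window only (added after the data had been seen). Without HC 3 and HHC 3 it became 2. With 1 fit per arm, HC against CC_s called 1 region and H against C 1 promoter. With the covered length, H against C called 0 loci and obesity 1, and with the whole signal of every peak H against C called 1. With the gene span alone, H against C called 1 locus and weight loss 0.

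With the replicate block, HH against CC_l called 1 of 27 member regions (Hspg2, 1.29, adjusted p = 0.0132) and 156 of all 33619 regions, where it called 0 without the block. No other count of member calls changed by over 1.5 times with the block besides the promoter call above. The numbers pair CC_s with C, where 0 member calls were made with and without the block, and for the other groups they share only a number. With the numbers of CCC crossed, added after the data had been seen, CCC against CC_l called 1 region and 18 loci genome-wide and 0 members.

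Leaving out 1 library at a time gave 1 to 5 region calls in H against C and 1 to 2 in obesity, 0 to 1 promoter calls in both, and 0 to 2 locus calls in H against C, 0 to 1 in HH against CC_l, 2 to 3 in obesity and 0 to 2 in weight loss. Signs reversed in the Nid2 locus in HHC against CCC (0.035) and in the Lama5 locus in obesity (-0.0075), both with the maximum signal. Under settings other than leaving out a library, 211 counts stayed within 1.5 times and 27 did not, and of the values of single features 172 kept their direction and call, 35 lost the call, 3 gained it and 2 reversed. The unknown depth of each library and groups of 2 or 3 limit what small differences can show.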
